A study of Mus musculus with 6 samples.

Results

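The genes described here are 40 genes of macrophages and other leukocytes, followed in whole mouse uterus with and without Nat10, an acetyltransferase that modifies cytidines in RNA. They were taken by symbol from a list that includes leukocyte genes in general, the Csf1 axis, macrophage surface and lysosomal genes, complement C1q, Fc receptor adaptors, and markers of lymphocytes, mast cells and neutrophils. All 40 were found among the 20637 genes listed in each library. The study sequenced poly(A) RNA of whole uteri from female mice on postnatal day 21, with 3 libraries labelled Nat10 f/f (floxed, called control here) and 3 labelled Nat10 d/d (called Nat10-deleted). The labels name no Cre driver, no cell type of deletion, no strain and no litter, and they do not say whether each library came from a separate animal, so p-values measure the spread between these libraries only. Values are FPKM, fragment counts scaled to transcript length and library size, a scale on which genes of different length can be compared.

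Tissue macrophages depend on the growth factor Csf1 and its receptor Csf1r, and on the transcription factor PU.1, which is encoded by Spi1. They engulf dying cells and debris, carry scavenger and Fc receptors, and are a main source of complement C1q. In the uterus they live in the stroma and muscle beside dendritic cells, lymphocytes, natural killer cells and mast cells. In RNA from whole tissue, fewer cells of a type and less RNA per cell cannot be told apart.

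Each library had 15431 to 15680 genes above 0, and estimated relative depth differed by at most 1.262 times. Nat10 was 13.2, 16.4 and 9.95 FPKM in controls, against 5.57, 5.23 and 5.53 in Nat10-deleted libraries, without overlap and in the direction the labels give. Some libraries stood apart in other cell markers. Summed over 7 red cell genes, control replicate 1 had 5582 FPKM against 709 to 2629 in the other 5 libraries, and summed over 5 fat cell genes it had 73.5 against 2 to 15.5. The division marker Mki67 was 24 in Nat10-deleted replicate 2 and 1.28 to 10.7 elsewhere.

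No leukocyte gene passed an adjusted p of 0.05 between the groups. A gene was tested with limma on log2(FPKM + 1) where it reached 1 FPKM in at least 3 libraries, which 32 of the 40 did, and the smallest adjusted p among them was 0.922. Over all 12640 genes tested, 0 (0%) passed. With an unadjusted p under 0.05 stood 1 leukocyte gene of the 32, Cd53, where 630 (4.98%) of all genes did, 2.68% higher and 2.3% lower in Nat10-deleted uteri. The groups did not overlap for 3 of the 32 (9.38%), against 10.7% of all genes tested. Of these 3, Cd53 and Cd3g were higher and Itgb2 lower in Nat10-deleted uteri, where 6.12% of all genes were higher without overlap and 4.6% lower. Mean log2 values were higher in Nat10-deleted uteri for 19 of the 32 (59.4%) and lower for 13, where 56.6% of all genes were higher. The median log2 change was 0.10, beside 0.03 for all genes. The change was smaller than its own standard error for 17 of the 32 genes.

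**Figure D1:**
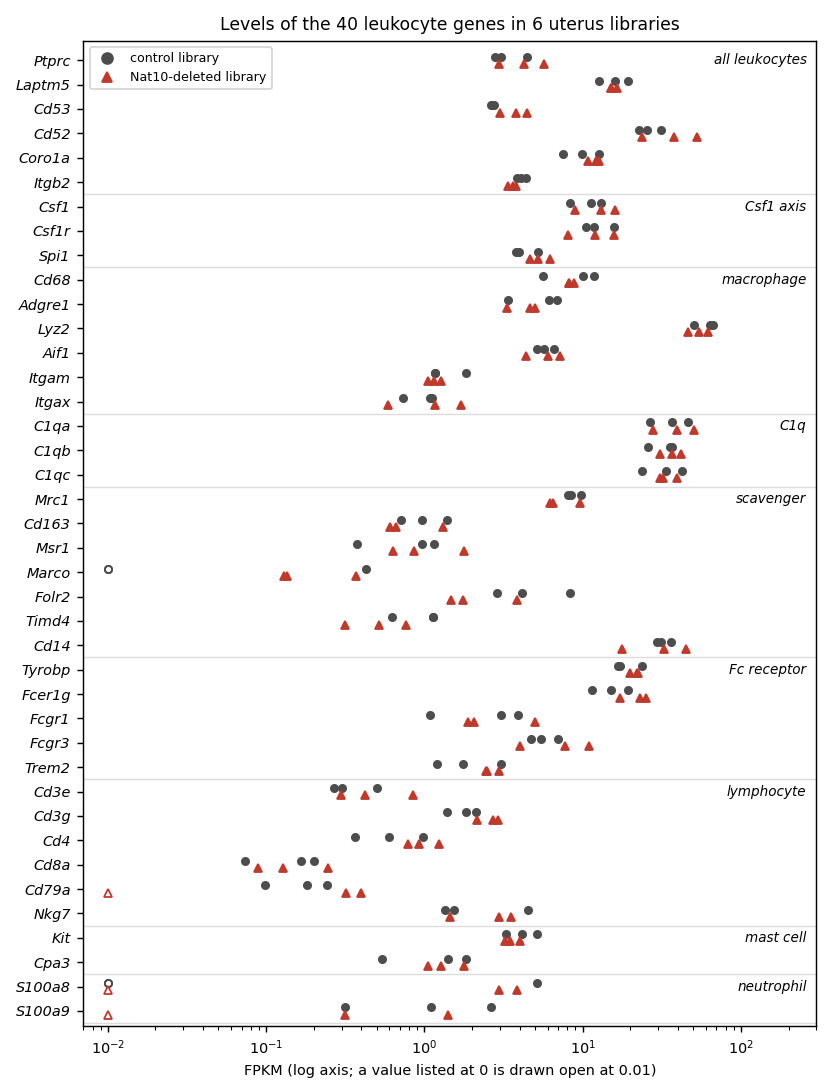
FPKM of each of the 40 genes (rows, grouped by role) on a log axis, with circles for the 3 control and triangles for the 3 Nat10-deleted libraries; open symbols mark values listed at 0. C1q chains, Lyz2, Cd14 and Cd52 lie highest, Marco, Cd79a and Cd8a lie lowest, and the groups of symbols overlap in most rows.

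The genes carried by all or nearly all leukocytes were present at low to moderate levels. Ptprc, which encodes the phosphatase CD45 on every nucleated blood cell, was 2.81, 3.03 and 4.43 FPKM in controls, against 5.68, 2.98 and 4.28 in Nat10-deleted libraries. Nat10-deleted replicate 1 was highest, but replicate 2 lay inside the control range, so the groups overlapped (log2 change 0.25, SE 0.23). Dropping Nat10-deleted replicate 1 brought the change to 0.07, and dropping replicate 2 brought it to 0.44. Laptm5, a lysosomal membrane protein of blood cells, ranged from 12.6 to 19.4 in controls, and from 15.1 to 16.4 in Nat10-deleted libraries. Coro1a, an actin-binding protein, ranged from 7.5 to 12.6 and from 10.8 to 12.6. Neither separated the groups.

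Cd53 and Itgb2 were the genes of this class whose groups did not overlap, in opposite directions. Cd53, a tetraspanin of the leukocyte surface, was 2.66, 2.62 and 2.74 FPKM in controls (2.68 ± 0.0639, SD, n = 3) and 4.42, 3.02 and 3.78 in Nat10-deleted libraries (3.74 ± 0.704, SD, n = 3). All 3 Nat10-deleted libraries were above the 3 controls. Its log2 change was 0.36 (SE 0.15), with an unadjusted p of 0.0494 and an adjusted p of 0.922 in limma. The unadjusted p in limma was 0.0714 to 0.0737 under the 3 other scalings and 0.07 in the fit blocked on replicate number. Itgb2, the shared beta chain of the leukocyte integrins, was 3.87, 4.07 and 4.36 in controls, against 3.65, 3.36 and 3.78 in Nat10-deleted libraries, all below the controls (log2 change -0.15, SE 0.12; limma adjusted p 0.935).

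Cd52, a short glycoprotein anchored to the surface of lymphocytes and other leukocytes, had the largest standard error of the class. It was 22.6, 25.5 and 31.5 FPKM in controls (26.6 ± 4.56, SD, n = 3) and 52.9, 23.8 and 38 in Nat10-deleted libraries (38.2 ± 14.5, SD, n = 3). Replicates 1 and 3 of the Nat10-deleted group were above every control, while replicate 2 lay among them (log2 change 0.45, SE 0.27; limma p 0.138, adjusted p 0.922). The log2 change was 0.75 without Nat10-deleted replicate 2 (limma adjusted p 0.173), but 0.19 when Nat10-deleted replicate 1 was left out (limma adjusted p 0.999). Part of the annotated Cd52 exons overlaps Crybg2 on the opposite strand, and the strandedness of the counting is not given in the sources used here.

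The Csf1 axis comprises the ligand Csf1, made largely by stromal and epithelial cells, its receptor Csf1r on macrophages, and Spi1. Csf1 was 8.35, 11.3 and 13.1 FPKM in controls, against 15.9, 13 and 8.96 in Nat10-deleted libraries. Csf1r was 10.5, 11.8 and 15.7 in controls, against 12, 8.05 and 15.8 in Nat10-deleted libraries. Spi1 was 3.94, 3.82 and 5.2 in controls, against 6.19, 4.65 and 5.24 in Nat10-deleted libraries. The groups overlapped for all 3 genes, with log2 changes of 0.18 (SE 0.23), -0.11 (SE 0.24) and 0.26 (SE 0.16). With each library left out in turn they ran from 0.01 to 0.39 for Csf1, from -0.32 to 0.13 for Csf1r and from 0.17 to 0.38 for Spi1, and the sign of Csf1r turned when control replicate 3 or Nat10-deleted replicate 2 was dropped. Of the annotated Csf1r exons, 873 of 5774 bases overlap Hmgxb3 on the opposite strand, which touches each ratio to Csf1r given here. Ligand and receptor did not keep a fixed proportion. The ratio of Csf1 to Csf1r was 0.795 to 0.957 in controls, against 1.32, 1.62 and 0.568 in Nat10-deleted replicates 1, 2 and 3. Il34, the other ligand of Csf1r and not among the 40 genes, was 2.73 to 4.26 in controls, against 1.93 to 4.04 in Nat10-deleted libraries.

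PU.1 binds ETS-type sites with the core GGAA, often preceded by GA, in the control regions of many myeloid genes. RefSeq promoter windows on GRCm38.p6 were at hand for 30 of the 40 genes, and the 250 bases before each start site were searched on both strands. The 6 letters GAGGAA were found in 18 of the 30 genes (60%), and in 25.9% of the 27025 genes with such a window. The longer GAGGAAGT, which contains those letters, was found in 2 of the 30 (C1qc and S100a8), or 6.67%, against 2.79%. For comparison, TATAAA was found in 4 of the 30 (13.3%) and in 14.3% of all genes. These are matches of letters and not measured binding, and genes with more than 1 start site had more than 1 window. The 18 genes with GAGGAA include Cd3e, Cd8a, Cd79a and Kit, which stand here for lymphocytes and mast cells. Spi1, Csf1r, Adgre1, Tyrobp and C1qa were among the genes without a window. Of the C1q chains, which varied together between libraries, the window of C1qb is shown. It is set beside those of Cd53, whose groups did not overlap, and Fcgr1, the Fc receptor gene of the 40 with the widest range between libraries. Capitals mark GAGGAA or its complement TTCCTC, and each sequence runs 5′ to 3′ along the gene's own strand.
C1qb, chr4:136886201-136886450, minus strand: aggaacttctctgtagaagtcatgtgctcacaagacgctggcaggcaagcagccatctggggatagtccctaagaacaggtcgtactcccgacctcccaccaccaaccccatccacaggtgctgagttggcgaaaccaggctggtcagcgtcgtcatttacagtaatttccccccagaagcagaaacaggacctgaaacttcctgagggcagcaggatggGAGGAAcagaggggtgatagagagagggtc
Cd53, chr3:106790150-106790399, minus strand: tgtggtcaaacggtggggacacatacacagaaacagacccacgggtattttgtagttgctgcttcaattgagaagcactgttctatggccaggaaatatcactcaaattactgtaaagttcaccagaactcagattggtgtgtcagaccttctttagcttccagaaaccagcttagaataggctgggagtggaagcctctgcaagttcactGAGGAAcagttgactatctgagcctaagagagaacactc
Fcgr1, chr3:96293970-96294219, minus strand: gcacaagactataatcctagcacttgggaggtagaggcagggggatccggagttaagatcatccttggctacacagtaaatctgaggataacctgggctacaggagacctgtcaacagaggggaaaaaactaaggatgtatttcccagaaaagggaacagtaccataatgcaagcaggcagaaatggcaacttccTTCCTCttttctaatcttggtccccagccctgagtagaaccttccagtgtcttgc
The first base of the match lies 30 bases before the start site in C1qb, 39 in Cd53 and 55 in Fcgr1. The match is on the gene's strand in C1qb and Cd53 and on the other strand in Fcgr1.

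Of 6 genes that mark macrophages and monocytes, 5 had lower mean log2 values in Nat10-deleted uteri, where 56.6% of all genes were higher. The 5 include Aif1, whose log2 change was -0.0 (SE 0.18). The median log2 change of the 6 was -0.09, and the groups overlapped for each of the 6. Cd68, a lysosomal glycoprotein, was 5.59, 10 and 11.8 FPKM in controls, against 8.26, 8.82 and 8.25 in Nat10-deleted libraries. The Nat10-deleted values sat inside the control range (log2 change -0.05, SE 0.24). Adgre1, the adhesion receptor that is the usual marker of mouse tissue macrophages, was 3.38, 6.1 and 6.85 in controls, against 4.64, 3.32 and 5.03 in Nat10-deleted libraries (log2 change -0.25, SE 0.24). For both genes control replicate 1 was well below the other controls. Without it, the log2 changes were -0.33 for Cd68 and -0.50 for Adgre1 (limma adjusted p 0.999 for Adgre1). With each library left out in turn the change ranged from -0.33 to 0.15 for Cd68, above 0 without control replicate 2 or 3, and from -0.50 to -0.08 for Adgre1.

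Lyz2, which encodes lysozyme of myeloid cells, was the most abundant of the 40 genes. It was 50.8, 67 and 64 FPKM in controls (60.6 ± 8.61, SD, n = 3) and 54.2, 46.1 and 61.9 in Nat10-deleted libraries (54.1 ± 7.91, SD, n = 3). The values of the groups overlapped (log2 change -0.16, SE 0.16; limma p 0.33, adjusted p 0.946). The change of Lyz2 ran from -0.28 to -0.05 with each library left out in turn. Lyz1, a close paralog of Lyz2, could share reads with it. Aif1, a calcium-binding protein of macrophages, ranged from 4.4 to 7.2 over all 6 libraries. Its mean was 5.83 FPKM in controls and 5.88 in Nat10-deleted libraries. Itgam and Itgax, integrin alpha chains of myeloid and dendritic cells, were near 1 FPKM, at 1.05 to 1.83 and 0.588 to 1.71. Most annotated Itgam exons are shared with the gene model Gm49368 on the same strand, so the value of Itgam is uncertain.

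C1qa, C1qb and C1qc encode the A, B and C chains that assemble into complement C1q, the protein that recognises antibody complexes and dying cells. The 3 genes lie next to each other on the minus strand of chromosome 4 (GRCm38), C1qb at 136880129 to 136886187, C1qc at 136889804 to 136893065 and C1qa at 136895917 to 136898803. C1qa was 26.8, 36.6 and 46 FPKM in controls (36.5 ± 9.58, SD, n = 3) and 50.7, 27.7 and 39.3 in Nat10-deleted libraries (39.2 ± 11.5, SD, n = 3). C1qb was 25.8, 35.7 and 36.9 in controls (32.8 ± 6.08, SD, n = 3) and 41.7, 30.9 and 36.5 in Nat10-deleted libraries (36.4 ± 5.4, SD, n = 3). C1qc was 23.6, 33.7 and 42.6 in controls (33.3 ± 9.49, SD, n = 3) and 39.2, 30.9 and 32.3 in Nat10-deleted libraries (34.1 ± 4.44, SD, n = 3). Within each group the chains gave the libraries the same order. Control replicate 1 was lowest of the controls and replicate 3 highest, and Nat10-deleted replicate 2 was lowest of its group and replicate 1 highest. The chains stayed close to equal amounts, with C1qb at 0.801 to 1.12 times C1qa and C1qc at 0.773 to 1.11 times. The differences between groups were small beside this spread, with log2 changes of 0.09 (SE 0.26), 0.15 (SE 0.17) and 0.06 (SE 0.21) for C1qa, C1qb and C1qc. The sign of each turned without control replicate 1, to -0.11, -0.01 and -0.16, and over all single libraries left out the highest changes were 0.32, 0.26 and 0.26. Their limma p-values were 0.727, 0.402 and 0.769, and the adjusted p-values 0.986, 0.951 and 0.989. Relative to Ptprc, C1qa was 9.55, 12.1 and 10.4 in controls, against 8.92, 9.31 and 9.17 in Nat10-deleted libraries, all below the controls. This ratio was chosen after its values had been seen and was not tested. In every other ratio between genes that was computed the groups overlapped, and none was computed of C1qb or C1qc to Ptprc.

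**Figure D2:**
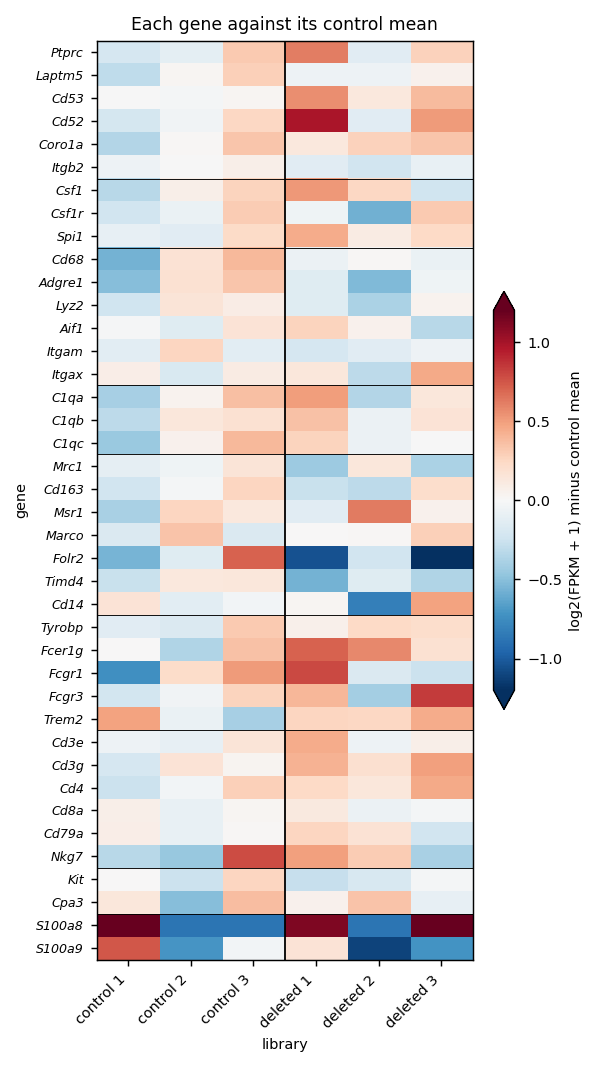
Difference of each gene's log2(FPKM + 1) from its control mean (colour) in the 6 libraries (columns), with genes in rows grouped by role and a black line between the groups of libraries. Control replicate 1 is mostly blue, control replicate 3 and Nat10-deleted replicate 1 are mostly red, and the Folr2 row is darkest blue in Nat10-deleted replicates 1 and 3.

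Among the tested genes of scavenger receptors and resident macrophages, Folr2 and Mrc1 were lower on average in Nat10-deleted uteri. Folr2, a folate receptor of resident macrophages, was 2.87, 4.14 and 8.29 FPKM in controls, against 1.76, 3.86 and 1.47 in Nat10-deleted libraries (5.1 ± 2.83 and 2.36 ± 1.3, SD, n = 3 each). Replicates 1 and 3 of the Nat10-deleted group were below every control, and replicate 2 was inside the control range. The log2 change was -0.83 (SE 0.37; limma p 0.0584, adjusted p 0.922). It was -1.12 without Nat10-deleted replicate 2 (limma adjusted p 0.243), -1.11 without control replicate 1 (limma adjusted p 0.999) and nearest to 0 at -0.47 among the single libraries left out. Relative to Csf1r, Folr2 was 0.273 to 0.528 in controls, against 0.147, 0.479 and 0.093 in Nat10-deleted libraries. Of the annotated Folr2 exons, 975 of 1546 bases overlap an antisense gene, Gm10602. The strandedness of the counting is not given, so the value of Folr2 is uncertain.

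Timd4, a phosphatidylserine receptor of resident macrophages, was too low to be tested. It was 0.62, 1.13 and 1.14 FPKM in controls, against 0.316, 0.762 and 0.517 in Nat10-deleted libraries. As for Folr2, replicates 1 and 3 of the Nat10-deleted group lay below every control. Mrc1, the mannose receptor of tissue macrophages and lymphatic endothelium, was 8.04, 8.39 and 9.81 in controls, against 6.2, 9.67 and 6.47 in Nat10-deleted libraries, with the same 2 libraries low (log2 change -0.23, SE 0.17). Its log2 change was -0.41 without Nat10-deleted replicate 2 (limma adjusted p 0.25), but -0.12 when Nat10-deleted replicate 1 was left out (limma adjusted p 0.999). Of the endothelial genes measured beside it, 8 of 8 had lower mean log2 values in Nat10-deleted uteri (median log2 change -0.27, against 0.03 for all genes, of which 56.6% were higher). The 8 stromal genes were also all lower (median -0.32), and of 6 epithelial genes 5 were higher (median 0.17). The part of these cells in the Mrc1 value was not tested.

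The other scavenger receptors differed in level and pattern. Cd14, the co-receptor for bacterial lipopolysaccharide, which epithelial cells can also express, was 36, 29.3 and 31.4 FPKM in controls, against 32.7, 17.8 and 45.3 in Nat10-deleted libraries. The Nat10-deleted values lay on both sides of the controls (log2 change -0.10, SE 0.30), and dropping Nat10-deleted replicate 2 brought the change to 0.25, dropping replicate 3 to -0.39. Cd163, the haemoglobin scavenger receptor, ranged from 0.709 to 1.39 in controls, and from 0.609 to 1.31 in Nat10-deleted libraries. Msr1 ranged from 0.378 to 1.15 and from 0.632 to 1.77. Marco, a scavenger receptor of marginal zone and alveolar macrophages, was listed at 0 in control replicates 1 and 3 and did not exceed 0.425 in any library. None of Cd163, Msr1 and Marco was tested.

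Tyrobp and Fcer1g encode small adaptor proteins that pass signals from Fc receptors and related receptors, and both were among the more abundant leukocyte genes. Tyrobp was 17.1, 16.7 and 23.7 FPKM in controls, against 19.8, 22.5 and 22 in Nat10-deleted libraries, inside the control range. Fcer1g was 15.1, 11.5 and 19.4 in controls (15.4 ± 3.96, SD, n = 3) and 25.1, 22.9 and 17.2 in Nat10-deleted libraries (21.7 ± 4.09, SD, n = 3). Nat10-deleted replicates 1 and 2 were above every control, and replicate 3 was below control replicate 3. The log2 change was 0.48 (SE 0.21; limma p 0.0515, adjusted p 0.922), and it was above 0 without any single library (0.31 to 0.66). Trem2, a lipid-sensing receptor that signals through Tyrobp, was 3.06, 1.75 and 1.2 in controls, against 2.47, 2.46 and 2.97 in Nat10-deleted libraries (log2 change 0.32, SE 0.24). Its change ran from 0.12 to 0.56 with each library left out in turn.

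The activating Fc receptors Fcgr1 and Fcgr3 showed overlapping groups. Fcgr1, the high-affinity receptor, was 1.08, 3.04 and 3.92 FPKM in controls, against 4.99, 2.07 and 1.9 in Nat10-deleted libraries, a 4.63-fold range with overlapping groups (log2 change 0.12, SE 0.39). Fcgr3 was 4.7, 5.47 and 6.98 in controls, against 7.74, 4 and 10.9 in Nat10-deleted libraries (log2 change 0.27, SE 0.31). With each library left out in turn the change of Fcgr1 ran from -0.24 to 0.38 and that of Fcgr3 from -0.01, without Nat10-deleted replicate 3, to 0.62. Fcgr4, which was not among the 40 genes, was 6.08 in Nat10-deleted replicate 1 and 0.468 to 1.47 in the other 5 libraries. Fcgr2b, the inhibitory IgG receptor and also not among the 40, kept within a 1.42-fold range, at 6.44 to 7.66 in controls and 5.48 to 7.78 in Nat10-deleted libraries (log2 change -0.06, SE 0.15). Fcgr1 can be induced by interferon, so Irf7, an interferon-stimulated transcription factor, was read beside it after its values had been seen. Irf7 was 12.9, 43.1 and 86 in controls, against 193, 71.1 and 72.7 in Nat10-deleted libraries. Control replicate 1 was thus lowest and Nat10-deleted replicate 1 highest for both Fcgr1 and Irf7. The part of interferon in the Fcgr1 values was not tested.

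**Figure D3:**
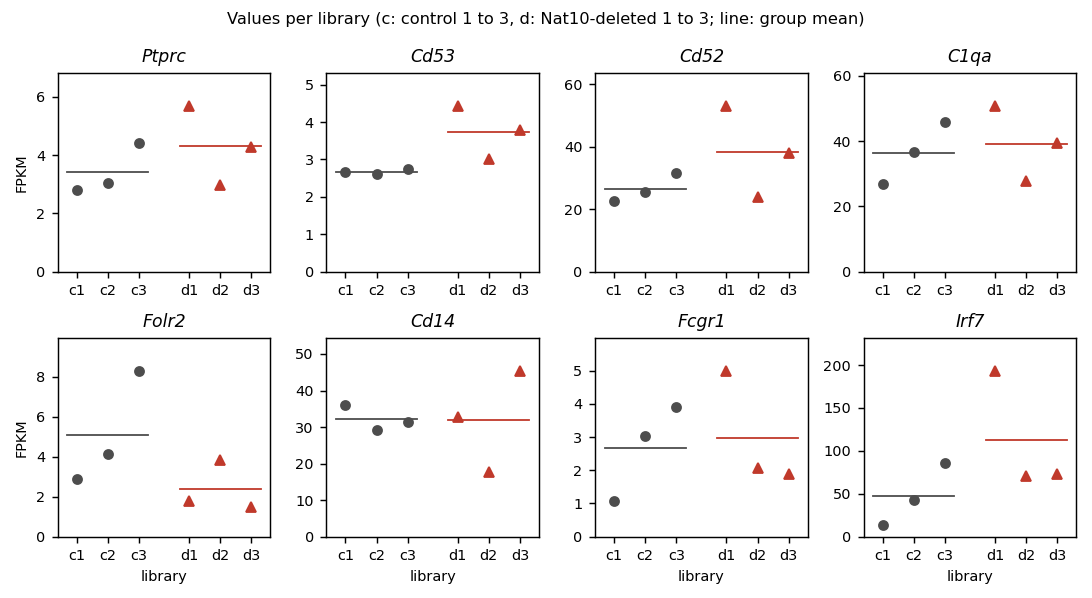
FPKM of 7 leukocyte genes and of Irf7 in each library (c1 to c3 control, d1 to d3 Nat10-deleted), each point a library and each line a group mean, with axes from 0. Cd53 is the plotted gene whose groups do not overlap, Folr2 is lowest in d1 and d3, and Fcgr1 and Irf7 are both lowest in c1 and highest in d1.

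Lymphocyte genes were at the lower end of detection. Cd3g, a chain of the T cell receptor complex, was 1.4, 2.11 and 1.84 FPKM in controls, against 2.7, 2.16 and 2.9 in Nat10-deleted libraries. All 3 Nat10-deleted libraries were above the controls, replicate 2 by a small margin (log2 change 0.37, SE 0.17; limma p 0.0634, adjusted p 0.922). Cd3e, Cd4 and Cd8a were too low to be tested, and their groups overlapped. Cd3e ranged from 0.269 to 0.847 over the 6 libraries, Cd4 (which some macrophages also express) from 0.363 to 1.23 and Cd8a from 0.0739 to 0.246. Nkg7, a granule protein of natural killer and cytotoxic T cells, was 1.55, 1.35 and 4.53 in controls, against 3.53, 2.96 and 1.46 in Nat10-deleted libraries. Cd79a, a chain of the B cell receptor, did not exceed 0.397 and was listed at 0 in Nat10-deleted replicate 3.

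Kit and Cpa3 represent mast cells among the 40 genes. Kit, the stem cell factor receptor of mast cells and of other cells such as interstitial cells, was 4.13, 3.28 and 5.13 FPKM in controls, against 3.22, 3.5 and 4.03 in Nat10-deleted libraries (log2 change -0.17, SE 0.17). Cpa3, a protease of mast cell granules, was 1.41, 0.539 and 1.83 in controls, against 1.27, 1.78 and 1.05 in Nat10-deleted libraries. The groups overlapped for both, and the Kit change ran from -0.29 to -0.04 with each library left out in turn. The mast cell proteases Tpsb2 (1.33 to 4.91), Cma1 (1.32 to 3.37) and Mcpt4 (1.01 to 3.94) were each highest in control replicate 3 and lowest in Nat10-deleted replicate 1, while Fcer1a was listed at 0 in all 6 libraries. Ms4a2, a chain of the IgE receptor, was listed at 0 in the 3 controls and did not exceed 0.112 in Nat10-deleted libraries. Hdc, the histamine-forming enzyme, which other cells also express, was far higher at 44.1 to 65.4, lowest in control replicate 3 and highest in Nat10-deleted replicate 3 (log2 change 0.08, SE 0.17).

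S100a8 and S100a9 encode the subunits of calprotectin, an abundant protein of neutrophils. S100a8 was listed at 5.15, 0 and 0 FPKM in controls, and at 2.98, 0 and 3.86 in Nat10-deleted libraries (log2 change 0.55, SE 0.84; limma p 0.531, adjusted p 0.967). S100a9 was listed at 2.62, 0.317 and 1.1 in controls, and at 1.42, 0 and 0.314 in Nat10-deleted libraries (log2 change -0.55, SE 0.44; limma p 0.253, adjusted p 0.933). The partner genes thus had changes of opposite sign, and neither was larger than the spread within groups. With each library left out in turn the change ran from 0.11 to 1.42 for S100a8 and from -0.91 to -0.18 for S100a9. Control replicate 1, highest for both, also had the highest red cell sum; the part of blood in these values was not tested. Of 9 further neutrophil genes, Ly6g, Cxcr2, Mpo, Elane, Ngp and Camp each stayed at or below 0.592 in every library. Of the other 3, Retnlg reached 0.802, and Csf3r was 0.395, 0.53 and 0.316 in controls, against 0.55, 0.572 and 0.717 in Nat10-deleted libraries, without overlap but too low to be tested. Ltf, which glandular epithelium can also express, was 2.02 to 2.42 in controls and 2.32 to 5.19 in Nat10-deleted libraries (log2 change 0.41, SE 0.24). The 6 eosinophil genes gave sums of 2 to 3.61, most of it from Ear2, while Siglecf, Ccr3, Prg2, Epx and Il5ra each stayed at or below 0.378.

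The libraries were also ordered by their leukocyte genes. Over the 40 genes, control replicate 3 was highest for 14 and Nat10-deleted replicate 1 for 13. Control replicate 1 was lowest for 13, Nat10-deleted replicate 2 for 9 and control replicate 2 for 8. Among the 32 tested genes, control replicate 3 was highest for 37.5% and Nat10-deleted replicate 1 for 31.2%, against 11% and 18.5% of all genes tested. Control replicate 1 was lowest for 34.4% and Nat10-deleted replicate 2 for 25%, against 10.4% and 25.7% of all genes tested. Nat10-deleted replicate 2 was highest for 0 of the 32, against 30.1% of all genes tested. The median difference from the control mean over the 32 tested genes was -0.20, -0.05 and 0.26 log2 units in control replicates 1 to 3, and 0.21, -0.10 and 0.09 in Nat10-deleted replicates 1 to 3. The Nat10-deleted medians lay inside the control range.

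The order of libraries by the sum of the 6 general leukocyte genes was nearly the reverse of that by red cell genes. From the lowest to the highest, the 6 general leukocyte genes summed to 52.1 FPKM in control replicate 1, 60.4 in Nat10-deleted replicate 2, 61.2 in control replicate 2, 75.1 in control replicate 3, 78.8 in Nat10-deleted replicate 3 and 92.6 in Nat10-deleted replicate 1. In that order of libraries the red cell sums were 5582, 1723, 2629, 852, 1111 and 709. Cd52 had the highest value of the 6 leukocyte genes in each library. The sums of the 6 macrophage and monocyte genes did not follow that order, at 67.8, 66, 90.8, 91.5, 82.6 and 76.5. Irf7 gave the libraries the reverse of the red cell order, while the interferon-stimulated genes Isg15 and Ifit1 did so only in part. Both were lowest in control replicate 1 and highest in Nat10-deleted replicate 1, but Isg15 was 71 and Ifit1 53.2 in Nat10-deleted replicate 3, below Nat10-deleted replicate 2 (172 and 61.5), which had more red cell RNA. Red cell genes made up 0.132% to 1.06% of all summed values, and the part of blood content in the leukocyte values was not tested.

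The spread within groups was compared over the same genes. On the log2(FPKM + 1) scale, the standard deviation among Nat10-deleted libraries was 0.86 times that among controls as a median over the 32 leukocyte genes, and 1.73 times over all 12640 genes. It was larger in the Nat10-deleted group for 11 of the 32 on that scale and for 15 of the 32 in FPKM.

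**Figure D4:**
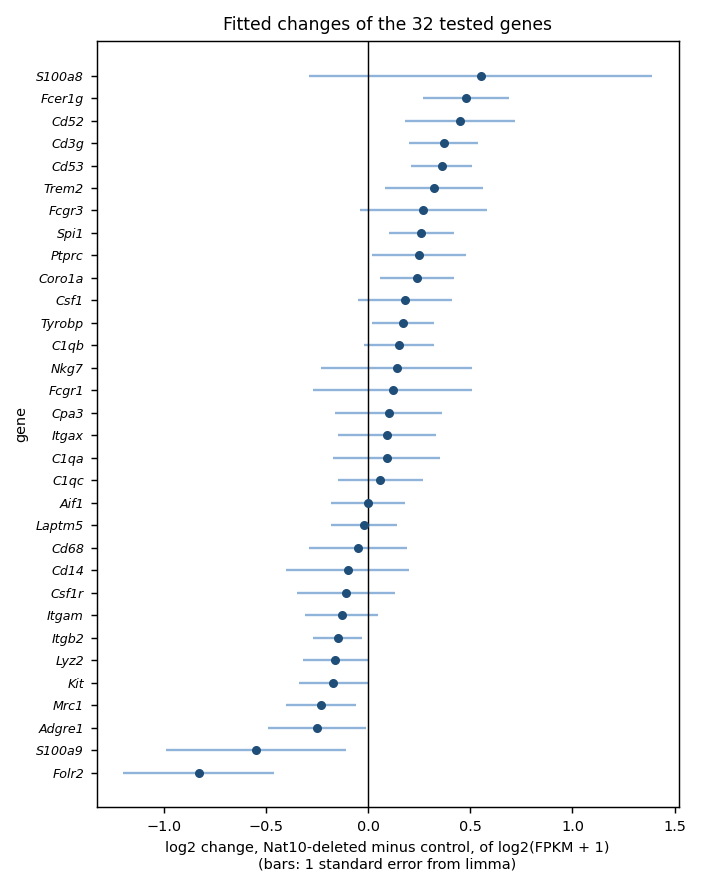
Log2 change (Nat10-deleted minus control, on log2(FPKM + 1)) of the 32 tested leukocyte genes, ordered by size, with bars of 1 standard error from limma. Points run from -0.83 for Folr2 to 0.55 for S100a8, and 17 of the 32 changes are smaller than their standard error.

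Further genes of the same cells were read from lists of 83 listed genes, of which 46 were tested. None passed an adjusted p of 0.05 in limma, 29 had higher and 17 lower mean log2 values in Nat10-deleted uteri, and the median log2 change was 0.08. Of the 46, 5 had an unadjusted p under 0.05 and 7 had groups that did not overlap, where the shares over all genes were 4.98% and 10.7%. These counts include genes that passed the filter on low values only through the Nat10-deleted group, so nothing is read from them. The 7 were Gas6, Cd79b, Lilrb4a and Clec9a (higher) and Stab1, Axl and Zbtb46 (lower). Of 28 macrophage genes tested, 17 had higher and 11 lower mean log2 values (median log2 change 0.07). Of 8 listed dendritic cell genes 4 were tested, with 3 higher and 1 lower (median log2 change 0.07). The receptor Clec9a of cross-presenting dendritic cells was 1.24, 1.19 and 1.43 FPKM in controls, against 2.53, 1.55 and 1.55 in Nat10-deleted libraries (log2 change 0.31, SE 0.19), and the transcription factor Zbtb46 was 5.72, 5.79 and 5.81, against 4.74, 5.05 and 5.7 (log2 change -0.14, SE 0.12).

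Stab1, a scavenger receptor of macrophages and sinusoidal endothelium, was 15.6, 14.3 and 19.5 FPKM in controls, against 8.14, 11.6 and 12.3 in Nat10-deleted libraries, all below the controls (log2 change -0.59, SE 0.18; limma p 0.0129, adjusted p 0.922). The endothelial genes given beside Mrc1 were lower with it. Of those 8, 3 did not overlap (37.5%), all of them lower, against 10.7% of all genes tested, 4.6% lower. The part of endothelium in the Stab1 value was not tested. Gas6, the ligand that bridges dying cells to the receptors Axl and Mertk, was 147, 171 and 167 in controls, against 178, 277 and 209 in Nat10-deleted libraries, all above the controls (log2 change 0.43, SE 0.17; limma p 0.0393, adjusted p 0.922). Its receptor Axl was 80.3, 80.1 and 91.5 in controls, against 74.1, 54.2 and 76.3 in Nat10-deleted libraries, all below (log2 change -0.31, SE 0.15). Axl and the other receptor, Mertk, were read after their values had been seen. Gas6 and Axl are also expressed outside leukocytes. Ligand and receptor therefore stood apart between the groups in opposite directions, and Mertk overlapped (2.99 to 7.94 over all libraries). Gas6 was highest and Axl and Mertk were lowest in Nat10-deleted replicate 2, the library with high Mki67, and the part of that library and of stromal cells in these values was not tested.

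The other 3 of the 5 genes, Gzma, Cd79b and Lilrb4a, reached 1 FPKM in all 3 Nat10-deleted libraries but in at most 2 controls. They therefore entered the test through the group in which they were high, and their values are given without a test. Gzma, a granzyme of natural killer and T cells, was 0.39, 1.31 and 2.17 FPKM in controls, against 4.8, 3.18 and 1.75 in Nat10-deleted libraries, with overlap. Cd79b, the partner of Cd79a in the B cell receptor, was 1.15, 0.371 and 0.759 in controls, against 1.35, 1.31 and 2.9 in Nat10-deleted libraries, without overlap. Ms4a1, a surface protein of B cells, went the other way at very low levels, with 0.188, 0.0772 and 0.0479 in controls, while it was listed at 0 in the 3 Nat10-deleted libraries, and it was not tested. Lilrb4a, an inhibitory receptor of myeloid cells, was 0.999, 1.02 and 0.438 in controls, against 2.12, 1.97 and 1.07 in Nat10-deleted libraries, without overlap.

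Leaving out the library with high Mki67, Nat10-deleted replicate 2, gave 6 of the 32 leukocyte genes at an unadjusted p under 0.05, where the share over all genes was 13.7%. Of these, Cd53 (log2 change 0.47), Cd52 (0.75), Fcgr3 (0.62) and Cd3g (0.46) were higher and Mrc1 (-0.41) and Folr2 (-1.12) lower, with limma adjusted p-values of 0.173 to 0.314. An adjusted p of 0.05 was passed by 0 of the 32 and by 12 (0.0949%) of all genes. Without control replicate 1 there were 3 such genes, Adgre1 (-0.50), Folr2 (-1.11) and Trem2 (0.56), where the share over all genes was 2.84%. Without control replicate 3 there were also 3, Coro1a (0.41), Tyrobp (0.32) and Fcer1g (0.66), where the share was 2.79%. In the last 2 settings 0 genes passed an adjusted p of 0.05 in limma. With array quality weights, which let limma give less weight to libraries that deviate more and which were added after values had been seen, 12 of the 32 had an unadjusted p under 0.05 (29.5% of all genes). Of them 2, Cd52 and Cd53, passed an adjusted p of 0.05, as did 2.5% of all genes.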

How the data were processed

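The 6 deposited tables hold FPKM values made by the authors, 1 table per library of poly(A) RNA. The submitters' processing notes list HISAT2 2.2.1, Cufflinks 2.2.1 and mm10; the headers do not name the unit, and the annotation, strandedness and gene filter are not given in the sources used here. Values summed to 500764 to 549263 per library. Total reads are unknown; relative depth was taken from the most frequent ratio of low values, so precision is read from the spread between libraries. No libraries were identical.

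Groups came from the sample titles. Genes of at least 1 FPKM in at least 3 libraries were tested as log2(FPKM + 1), which understates changes of low genes, with limma 3.58.1 in R 4.3.3 (lmFit, eBayes with trend, group as the only term; two-sided, Benjamini-Hochberg over 12640 genes). The fit was tested on simulated data. Positions and exon overlaps are from GENCODE M21 (GRCm38, the assembly of mm10), promoters from RefSeq (GRCm38.p6). Python 3.11.15 with pandas 2.3.3 was used.

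The genes and lists were chosen with earlier results of these data known. All 40 genes are given; full statistics went to those with an unadjusted p under 0.05, the 5 largest changes and the 5 highest levels. Alternatives were another pseudocount, other filters and scalings, no trend, a replicate block, each library left out, and array quality weights.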

Additional observations from a re-analysis of the deposited data

How the results depend on the processing

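Of the settings, only the array quality weights were added once values had been seen. Of the 40 genes, 0 passed an adjusted p of 0.05 in limma under any setting other than array quality weights, where 2 passed: Cd52 (log2 change 0.91, adjusted p 0.047) and Cd53 (0.52, adjusted p 0.0499). Over all genes the weights gave 316 at an adjusted p of 0.05, and leaving out each library in turn gave 0 to 12, the 12 without Nat10-deleted replicate 2. The median log2 change of the leukocyte genes was 0.07 to 0.20 under the other settings and -0.02 to 0.20 with a library left out. It was below 0 without control replicate 1 or Nat10-deleted replicate 1. With the replicate number as a block it was 0.10, and 0 genes passed in limma (726 at an unadjusted p under 0.05). Same-numbered libraries did not deviate together (correlations of -0.341, -0.029 and 0.1 for numbers 1 to 3), so the numbers were not taken as pairs. Signs were the same as reported for the 32 genes under the pseudocount, no-filter, scaling, trend and block settings and for the 28 genes left by the filter on all 6 libraries, and 19 genes kept their sign under every setting in which they were fitted. The groups did not overlap for 2 of the 32 under quantile normalization or median centring (1367 and 1368 of all 12640 genes), and for 3 as reported (1356 of all genes). With a pseudocount of 0.1, the changes of S100a8 and S100a9 were 1.51 and -1.48, both larger in size than that of Folr2 (-1.06), which has the largest change as reported. Precision is limited by 3 libraries a group and unknown total depth.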
